A study of Bos taurus with 6 samples.

Results

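TM4SF1 and the tetraspanins CD9, CD63, CD81, CD82 and CD151 are small proteins that cross the cell membrane several times, and their transcripts were followed here in bovine blastocysts. The members were taken by name from the deposited table of 9537 genes. Of the 6 names, 5 had a row, and CD82 had none and is not analysed here. The members were chosen by values of the comparison described here: TM4SF1 was selected on its call in the authors' deposited table, and the tetraspanins were set beside it by family. The difference between the groups is therefore given for these 5 genes as a description and not as a test.

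The series compared embryos of low cryosurvival (3 libraries) with embryos of high cryosurvival (3 libraries), where cryosurvival means survival after vitrification, a rapid freezing without ice. All embryos were blastocysts produced in vitro in the medium SOFaaci, and total RNA was sequenced. The titles carry the codes NV for each low and V for each high cryosurvival library, which the labels do not explain. Whether the RNA stems from embryos before or after freezing, how many embryos made up a library and whether replicates were separate cultures is not given in the labels. P-values therefore measure only the spread between these libraries, which may be technical.

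Tetraspanins organise other membrane proteins, such as integrins and proteases, into shared membrane domains, and several of them are sorted into extracellular vesicles. CD9 and CD81 are best known in reproduction from the mouse, where the egg needs them for fusion with sperm. CD63 is a resident of late endosomes and a marker of exosomes, CD151 binds laminin-binding integrins, and CD82 is known in human tumours as a suppressor of metastasis. TM4SF1 has the same layout in the membrane but belongs to a separate family, named after the L6 tumour antigen, and is known from the surface of endothelial and carcinoma cells. A blastocyst consists of an outer epithelium, the trophectoderm, and an inner cell mass with epiblast and hypoblast.

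Reads in the table came to between 14651477 and 19467022 per library. The values are CPM, that is, reads divided by a scaled library size. They summed to 1100412 in low cryosurvival library 2 and to between 960647 and 995602 in the other libraries. The scaling was thus not to the table total alone, and how it was done is not given. Differences are given as low minus high cryosurvival on log2(CPM + 1), from limma fitted to all 9537 genes. Markers of the blastocyst were present in each library, among them KRT8, CDX2 and GATA3 of the trophectoderm and POU5F1 and SOX2 of the inner cell mass. Low cryosurvival library 2 stood apart from the others. Against the mean of low libraries 1 and 3, the median of its 76 ribosomal protein genes, which have short messages, was higher by 0.93, and that of 26 genes with long messages was -0.99, beside -0.02 over all genes. Results that rest on this library are given with and without it. The median log2(CPM + 1) of the long set minus that of the ribosomal set, the length index, was -4.65 in low library 2. It was -2.60 and -2.89 in low libraries 1 and 3, and -3.23, -3.18 and -3.49 in high libraries 1, 2 and 3. Leaving out low library 2 thus leaves groups that do not overlap in this index, and group and index cannot be told apart there. In whole embryos, fewer cells of a type and less RNA per cell cannot be told apart.

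TM4SF1 had the largest difference of the members, and it was higher in each low cryosurvival library than in each high cryosurvival library. It was at 18.0, 26.7 and 19.2 CPM in low cryosurvival libraries 1, 2 and 3, against 4.48, 5.61 and 8.76 CPM in high cryosurvival libraries 1, 2 and 3. The lowest low library was above the highest high library. TM4SF1 averaged 21.3 ± 4.73 CPM in the low group and 6.29 ± 2.22 CPM in the high group (SD, n = 3 each), a ratio of 3.39. The log2 difference was 1.64 ± 0.25 (SE), and it was 1.47 ± 0.23 without low library 2. Among all 9537 genes this log2 difference was number 3 from the top, which describes the value that led to its choice. In the authors' deposited table its log2 fold, turned to low over high, was 1.76, with an adjusted p given as 0 at 3 decimals.

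The counts behind TM4SF1 were moderate. It had 361, 356 and 367 reads in the low cryosurvival libraries, against 80, 107 and 158 reads in the high cryosurvival libraries. The exact Poisson 95% interval, which covers counting error only, was 16.2 to 20.0 CPM in low library 1, the lowest of its group. In high library 3, the highest of its group, it was 7.45 to 10.2 CPM. The intervals of these neighbouring libraries did not overlap, whereas the spread within each group was wider than the interval of a single library.

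CD9, a widely used surface marker of extracellular vesicles, was at 879, 1331 and 843 CPM in the low cryosurvival libraries, against 887, 779 and 871 CPM in the high cryosurvival libraries. Low libraries 1 and 3 lay inside the range of the high libraries, and low library 2 alone was above it. The log2 difference of 0.24 ± 0.20 became 0.03 ± 0.10 without low library 2. CD63, the late endosome and exosome marker, had the same shape. Its values were 195, 393 and 192 CPM in low, against 145, 167 and 218 CPM in high cryosurvival libraries. The CD63 log2 difference was 0.49 ± 0.31 with all libraries and 0.15 ± 0.17 without low library 2, and the groups overlapped with and without it.

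CD81, a partner of CD9 in egg membranes and of cell surface receptors in lymphocytes, lay on the other side. It was at 424, 551 and 409 CPM in low, against 533, 492 and 525 CPM in high cryosurvival libraries. In these deposited CPM, low libraries 1 and 3 were below every high library and low library 2 was above every one. The CD81 log2 difference was -0.18 ± 0.15, and -0.31 ± 0.09 without low library 2. With all libraries scaled to equal table totals it was -0.20 ± 0.13. CD151, the integrin-binding member, was at 688, 732 and 691 CPM in low, against 737, 802 and 748 CPM in high cryosurvival libraries. Here all low libraries were below all high libraries, by a small margin, at a ratio of 0.923. The CD151 log2 difference was -0.11 ± 0.11, and -0.14 ± 0.09 without low library 2. These genes had between 2589 reads for CD63 in high library 1 and 17720 reads for CD9 in low library 2, so their counting error was small.

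**Figure D1:**
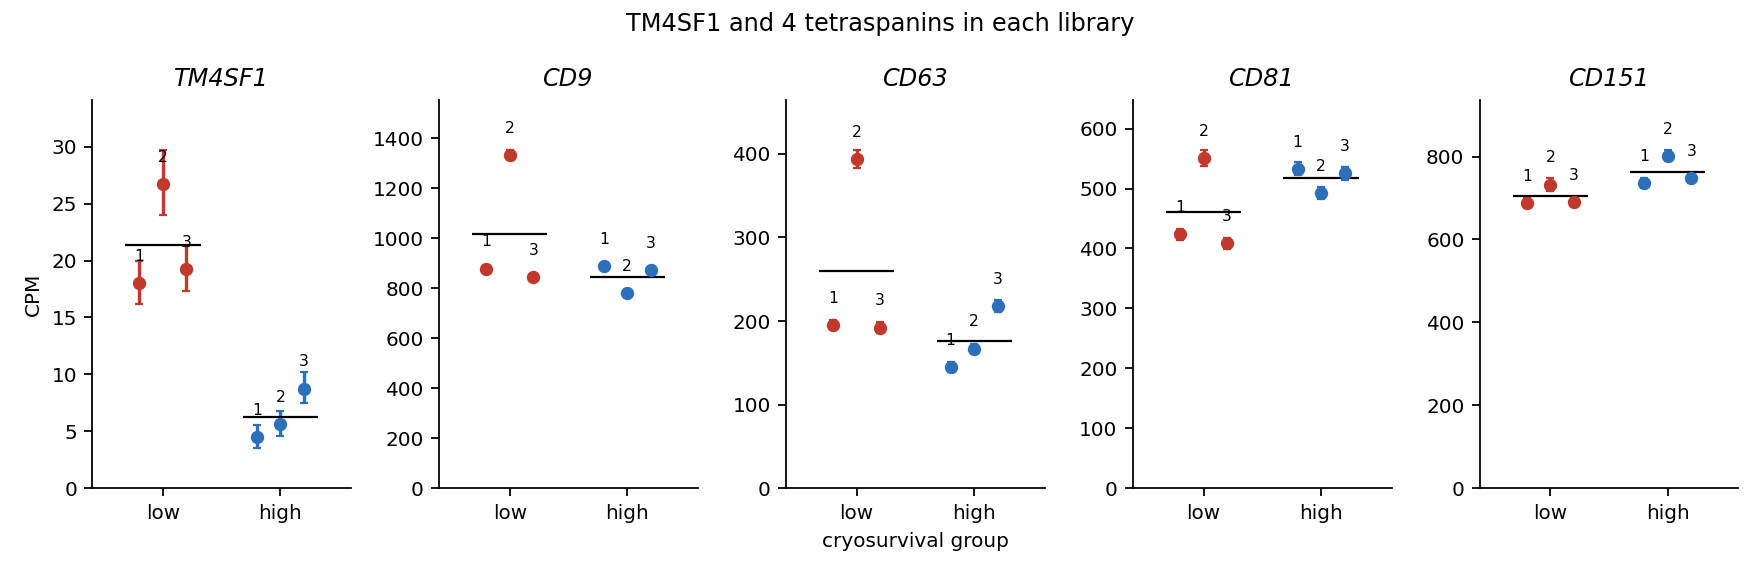
CPM of TM4SF1 and 4 tetraspanins in each library (number beside the point), with low cryosurvival left of high; whiskers are exact Poisson 95% intervals and lines are group means. TM4SF1 is the gene whose low libraries, 18.0 to 26.7 CPM, all stand well above the high libraries, 4.48 to 8.76 CPM, while low library 2 lifts the low means of CD9 and CD63.

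The 5 genes divide by these values into TM4SF1, a pair near or above the high level (CD9 and CD63) and a pair slightly below it (CD81 and CD151). Low above high without overlap was seen for 1 of the 5, TM4SF1, and low below high for 1, CD151. Over all genes 10.4% had the first pattern and 10.6% the second. By limma none of the 5 was called at an adjusted p of 0.05, beside 0% of all genes (0 of 9537, with 12% at an unadjusted p under 0.05). The voom test of limma on whole reads also called 0 genes. Without low library 2, limma called TM4SF1 and none of the tetraspanin members, beside 13.6% of all genes. The authors' deposited calls held 1 of the 5, TM4SF1, which had an adjusted p below 0.05, beside 1.2% of all genes. The deposited adjusted p values of CD63, CD9, CD81 and CD151 in the authors' deposited table were 0.556, 0.91, 0.97 and 0.991. Because the contrast entered the choice of the members, nothing is read from these counts.

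How far the members varied within a group also differed. The coefficient of variation in low cryosurvival libraries was 44.3% for CD63, 26.7% for CD9, 22.2% for TM4SF1, 16.9% for CD81 and 3.53% for CD151. In high cryosurvival libraries it was 21.2% for CD63, 6.90% for CD9, 35.3% for TM4SF1, 4.14% for CD81 and 4.58% for CD151. CD151 was thus the steadiest gene of the low group and TM4SF1 the most variable of the high group. Against the mean of low libraries 1 and 3, low library 2 was higher by 1.02 for CD63, 0.63 for CD9, 0.50 for TM4SF1, 0.40 for CD81 and 0.09 for CD151 on the log2 scale. These deviations stood at percentiles 95.5, 85.6, 80.3, 75.6 and 57.3 of all genes. They go the same way as the ribosomal protein genes of that library, and the part of message length or RNA quality in these deviations was not tested. The differences between the groups were also fitted with the length index as covariate. They were then 1.61 ± 0.19 for TM4SF1, 0.21 ± 0.09 for CD9, 0.45 ± 0.13 for CD63, -0.19 ± 0.08 for CD81 and -0.12 ± 0.07 for CD151 (SE).

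**Figure D2:**
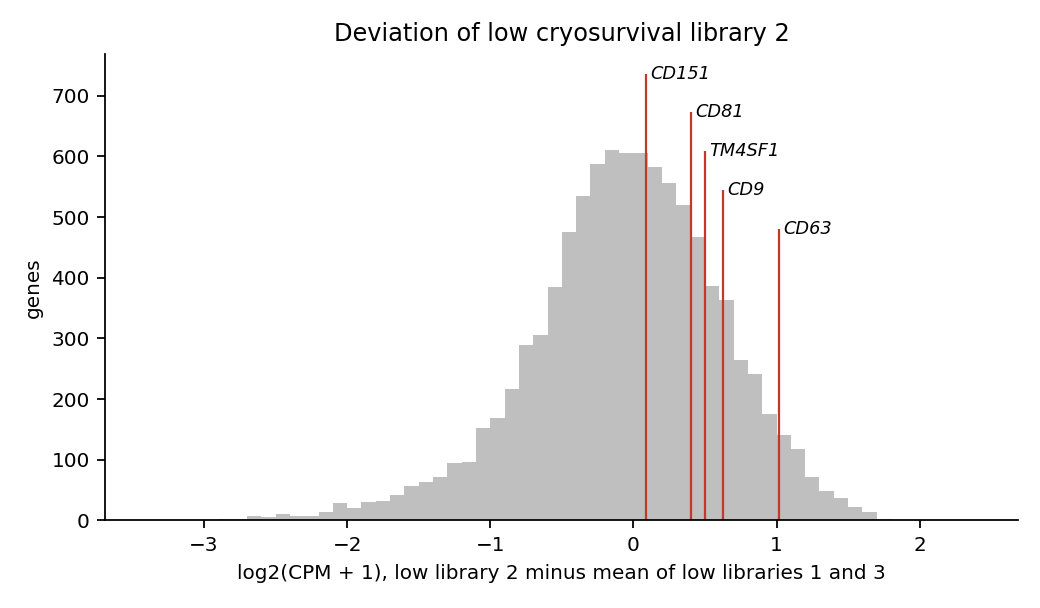
Number of genes by the log2(CPM + 1) difference between low cryosurvival library 2 and the mean of low libraries 1 and 3, for all 9537 genes (grey), with the members as red lines. The members lie from 0.09 (CD151) to 1.02 (CD63), on the right of the median of all genes at -0.02.

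Counting TM4SF1 against another member of the same library removes the library scaling. There were 20.5, 20.1 and 22.8 TM4SF1 reads per 1000 CD9 reads in the low cryosurvival libraries, against 5.05, 7.20 and 10.1 in the high cryosurvival libraries. Per 1000 CD9 reads low library 2 no longer stood apart from low libraries 1 and 3. Against CD63 it was still the lowest of its group (92.4, 68.0 and 99.9 in low libraries 1, 2 and 3). Against CD151 it was the highest (26.2, 36.5 and 27.8). Per 1000 CD81 reads the values were 42.5, 48.5 and 47.0 in low, against 8.42, 11.4 and 16.7 in high cryosurvival libraries. The ratio of low over high means was 2.84 for CD9, 2.49 for CD63, 3.78 for CD81 and 3.65 for CD151 as the denominator. For each of the 4 denominators all low libraries were above all high libraries. These ratios reuse the TM4SF1 values that led to its choice, and the denominators differed far less between the groups. They are therefore a description and no separate support for the difference.

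**Figure D3:**
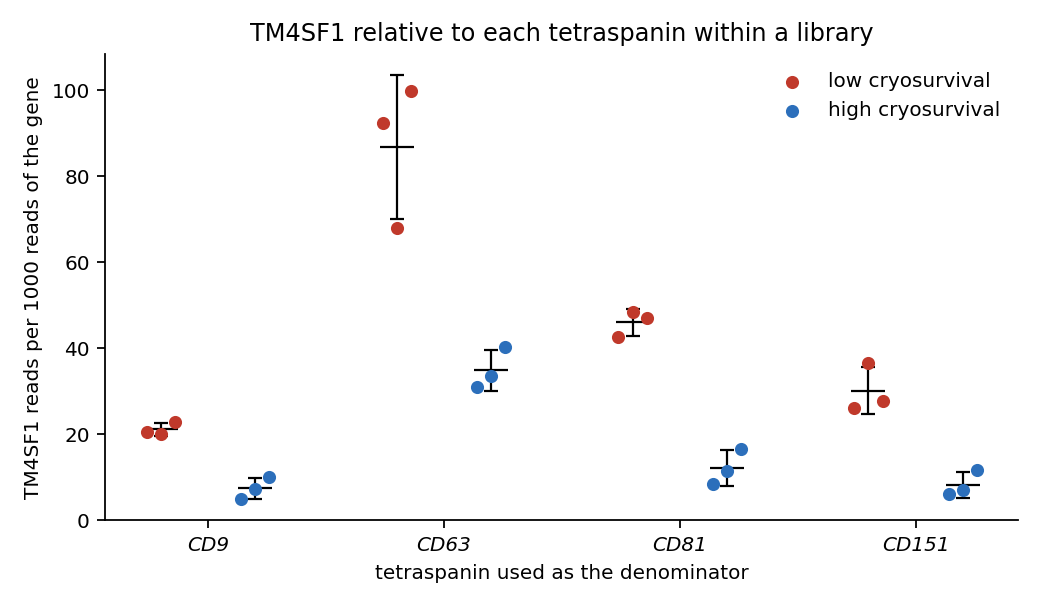
TM4SF1 reads per 1000 reads of CD9, CD63, CD81 or CD151 in the same library; points are libraries, low cryosurvival left of high, and black marks are means with SD. The lowest low value against CD63 was 68.0 and the highest high value 40.2, and the groups were apart for the other denominators too.

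The proportions among the tetraspanin members also differed between libraries. CD81 was at 482, 414 and 485 reads per 1000 CD9 reads in low, against 600.1, 632 and 603 in high cryosurvival libraries, so every low library was below every high one. CD151 was at 783, 550.3 and 819 per 1000 CD9 reads in low, against 830.1, 1029 and 858 in high cryosurvival libraries, again without overlap. For CD63 the values were 222, 295 and 228 in low, against 163, 214 and 250.2 in high cryosurvival libraries, and the groups overlapped. Over the 6 libraries, log2(CPM + 1) of CD9 and CD63 had a Pearson correlation of 0.90, and CD81 and CD151 one of 0.62. TM4SF1 had 0.76 with CD63, 0.61 with CD9, -0.35 with CD81 and -0.65 with CD151. These 6 points share the library scaling and include the difference between the groups, and low library 2 is the highest for CD9, CD63, CD81 and TM4SF1.

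Among 28 other tetraspanin genes 17 were measured, and they lay on both sides of 0. Of these, 11 were higher and 6 lower in low cryosurvival embryos, with a median log2 difference of 0.19 beside 0.0002 over all genes, and 0.07 without low library 2. By limma 0 of the 17 passed at an adjusted p of 0.05. At an unadjusted p under 0.05 there were 3, beside 12% of all genes: TSPAN5 and TSPAN14 on the higher side and TSPAN32 on the lower side. The authors' deposited table called 0 of the 17.

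TSPAN14 belongs, with TSPAN5, TSPAN15, TSPAN17 and TSPAN33, to the subgroup that escorts the protease ADAM10 to the cell surface. It was at 249, 267 and 226 CPM in low, against 182, 209 and 160 CPM in high cryosurvival libraries. The low libraries were all above the high ones, and its log2 difference of 0.43 ± 0.15 had a limma adjusted p of 0.315. TSPAN5 was at 2.30, 2.03 and 2.25 CPM in low, against 1.23, 1.10 and 1.33 CPM in high cryosurvival libraries. The groups were again apart, at few reads, with a limma adjusted p of 0.176, and 0.0206 without low library 2. TSPAN15 was at 136, 190 and 138 CPM in low, against 173, 177 and 159 CPM in high cryosurvival libraries. The subgroup held both signs, with log2 differences of 0.52 for TSPAN5, 0.43 for TSPAN14, 0.32 for TSPAN33, 0.19 for TSPAN17 and -0.14 for TSPAN15. ADAM10 itself was at 89.7, 13.5 and 68.5 CPM in low, against 47.9, 58.0 and 32.6 CPM in high cryosurvival libraries. Its low library 2 was below all others, and its log2 difference was -0.03 with that library and 0.79 without it (limma adjusted p = 0.993 and 0.0735). With all libraries and the length index as covariate the ADAM10 difference was 0.08 (limma adjusted p = 0.682).

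TSPAN32, a tetraspanin known mainly from blood cells, had the largest difference in the other direction. It was at 6.54, 9.54 and 5.24 CPM in low, against 12.0, 19.0 and 12.7 CPM in high cryosurvival libraries. All low libraries were below all high libraries. Its log2 difference was -0.95 ± 0.25 with a limma adjusted p of 0.222, and -1.16 with 0.0234 without low library 2. In the authors' deposited table its adjusted p was 0.062, just outside the threshold of 0.05. CD37, another tetraspanin of leukocytes, was at 6.04, 1.95 and 4.97 CPM in low, against 2.13, 2.36 and 3.00 CPM in high cryosurvival libraries. Low library 2 was below every high library and the other low libraries above every one. Without low library 2 limma called CD37 higher (log2 difference 0.90, adjusted p = 0.0190), as it did 8.15% of all genes.

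Of 10 leukocyte markers only CD37, CD14 and CD68 had a row, with a summed level of 7.51 to 15.2 CPM in low and 11.9 to 15.2 CPM in high cryosurvival libraries. PTPRC and CD53, defining genes of leukocytes, had no row. Among the remaining tetraspanins TSPAN4, known from migrasomes, was called lower without low library 2 (log2 difference -0.44, limma adjusted p = 0.0487; 5.48% of all genes were called lower there), and was at 26.2, 55.0 and 28.5 CPM in low, against 34.7, 36.0 and 42.1 CPM in high cryosurvival libraries. With all libraries and the length index as covariate the TSPAN4 difference was -0.16 (limma adjusted p = 0.204). TSPAN2, TSPAN3, TSPAN6, TSPAN7, TSPAN12, TSPAN13, TSPAN31, ROM1 and the uroplakin UPK1A overlapped between the groups with all libraries, and had log2 differences from -0.42 for TSPAN12 to 0.44 for TSPAN2.

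**Figure D4:**
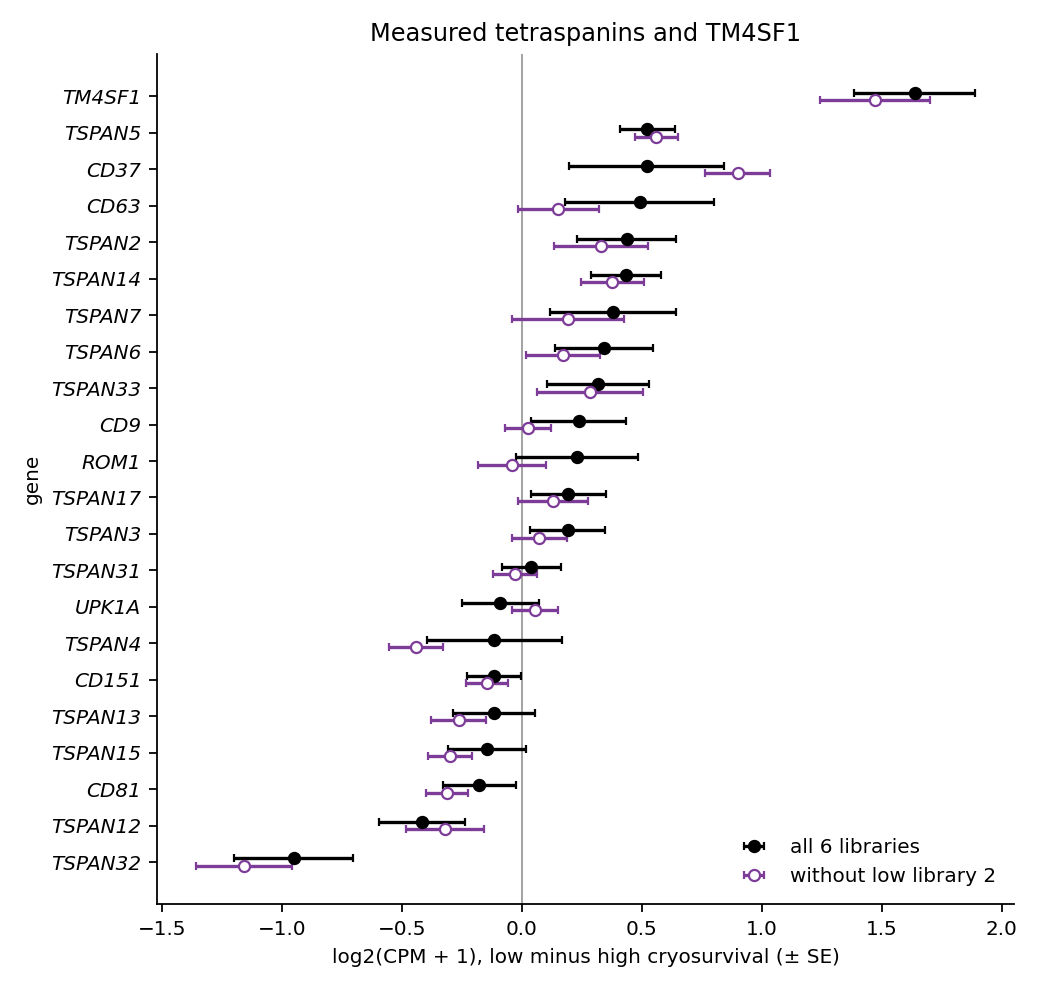
Log2(CPM + 1) differences, low minus high cryosurvival, of TM4SF1 and all 21 measured tetraspanins with SE, from limma on all 6 libraries (black) and without low cryosurvival library 2 (open). With all libraries TM4SF1 stands at 1.64 and the tetraspanins lie between -0.95 (TSPAN32) and 0.52 (TSPAN5); without low library 2 they lie between -1.16 (TSPAN32) and 0.90 (CD37).

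Of the 6 genes of the TM4SF1 family, TM4SF1 was the one with a row. In assembly ARS-UCD2.0 it lies between TM4SF4 and TM4SF18, neither of which had a row. On its sides the nearest coding genes with a row were WWTR1 on one, which encodes the Hippo pathway co-activator TAZ, and HPS3 on the other, which encodes a subunit of an organelle biogenesis complex. WWTR1 was at 49.0, 41.4 and 55.6 CPM in low, against 40.7, 40.6 and 46.0 CPM in high cryosurvival libraries, and the groups overlapped. HPS3 was at 19.9, 14.0 and 19.8 CPM in low, against 18.8, 17.7 and 17.0 CPM in high cryosurvival libraries. Strand use in the counting is not stated, so TM4SF1 reads and those of any antisense transcript could not be separated.

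Genes that have been described as partners of TM4SF1 in human tumour cells had a median log2 difference of 0.06. Of 7 listed, 5 were measured (DDR1, STAT3, PRKCA and the integrin chains ITGA5 and ITGB1), 3 higher and 2 lower, and 0 passed limma. Without low library 2, limma called 1 of the 5 higher, ITGB1, whose values stand with the integrins, beside 8.15% of all genes called higher. DDR1, a collagen receptor kinase, was at 214, 172 and 196 CPM in low, against 186, 202 and 171 CPM in high cryosurvival libraries. STAT3, a transcription factor, was at 99.7, 94.3 and 106 CPM in low, against 99.4, 82.9 and 95.2 CPM in high cryosurvival libraries. In DDR1 and STAT3 the groups overlapped.

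Integrins, the receptors for matrix that several tetraspanins bind, also had a median near 0. Of 21 listed, 13 were measured, 7 higher and 6 lower in low cryosurvival embryos, at a median of 0.01 and with 0 past limma. ITGB1, the shared beta chain, was at 212, 46.8 and 175 CPM in low, against 116, 115 and 78.0 CPM in high cryosurvival libraries. ITGA6, a laminin-binding alpha chain and CD151 partner, was at 34.1, 10.1 and 28.5 CPM in low, against 13.6, 16.0 and 12.0 CPM in high cryosurvival libraries. In both genes low library 2 was the lowest of all 6 libraries and the other low libraries were the highest. Without that library limma called both higher, at log2 differences of 0.92 for ITGB1 and 1.12 for ITGA6 (adjusted p = 0.0341 and 0.0158), beside 8.15% of all genes called higher. The integrin median then became 0.18. With the length index as covariate the differences were 0.33 for ITGB1 and 0.68 for ITGA6 (limma adjusted p = 0.0682 and 0.0108, with 1260 of all 9537 genes called). ITGA10, a collagen-binding chain, was at 5.49, 2.40 and 4.87 CPM in low, against 6.33, 7.29 and 8.21 CPM in high cryosurvival libraries (log2 difference -0.70, limma adjusted p = 0.345).

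Other proteins found in tetraspanin complexes were more often higher than lower in low cryosurvival embryos. Of 22 listed names, 16 had a row, and GPR56 and ADGRG1 among the names stand for the same gene. Of the 16, 13 were higher and 3 lower, at a median log2 difference of 0.16, or 0.37 without low library 2, and 0 passed limma. The low libraries were all above the high ones in 5 of the 16, against 10.4% of all genes, and below in 0. This list was chosen with earlier results of these data known, so its counts are a description and not a test. ICAM1, an adhesion receptor for leukocytes that associates with tetraspanins in endothelium, was at 18.9, 13.0 and 22.9 CPM in low, against 7.73, 7.39 and 9.43 CPM in high cryosurvival libraries (log2 difference 1.04, limma adjusted p = 0.164). ICAM1 was the 1 gene of the 16 that the authors' deposited table called, higher in low, with an adjusted p of 0.01. Without low library 2, limma called 5 of the 16 higher, ICAM1, CD44, MET, IGSF3 and HBEGF, and 0 lower. Over all genes 8.15% were called higher and 5.48% lower in that setting. The log2 differences of the 5 genes were from 0.68 for MET to 1.25 for ICAM1. With all libraries and the length index as covariate, limma called 3 of the 16 higher, ICAM1, HBEGF and CLDN1, and 0 lower. Over all 9537 genes it called 665 higher and 595 lower in that fit. There MET was at 0.31, IGSF3 at 0.28 and CD44 at 0.76 (limma adjusted p = 0.0502, 0.133 and 0.0518). HBEGF, a growth factor whose membrane form binds CD9 and which takes part in embryo implantation, was at 121, 67.8 and 105 CPM in low, against 64.4, 65.1 and 67.3 CPM in high cryosurvival libraries. Its low library 2 was only just above the high libraries, and its log2 difference was 0.53 with all libraries and 0.77 without that one (limma adjusted p = 0.405 and 0.0158). EPCAM, an epithelial adhesion protein, was at 473, 557 and 414 CPM in low, against 432, 411 and 460.1 CPM in high cryosurvival libraries. BSG, the matrix protease inducer basigin, was at 1581, 1896 and 1532 CPM in low, against 1524, 1679 and 1520 CPM in high cryosurvival libraries.

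Genes of exosome formation and the ESCRT machinery, which buds vesicles into late endosomes, had a median log2 difference near 0. Of 40 listed, 35 were measured, 19 higher and 16 lower in low cryosurvival embryos, at a median of 0.01, and 0 passed limma. The low libraries were all above the high ones in 8 of the 35 and all below in 1, FLOT1, beside the 10.4% and 10.6% of all genes. RAB31, a small GTPase of endosomes, was at 21.3, 18.6 and 19.9 CPM in low, against 13.4, 12.7 and 12.0 CPM in high cryosurvival libraries (log2 difference 0.61, limma adjusted p = 0.164). SDC3, a syndecan, was at 14.2, 9.91 and 12.4 CPM in low, against 7.84, 7.97 and 8.60 CPM in high cryosurvival libraries (log2 difference 0.51, adjusted p = 0.262). In both genes all low libraries were above all high ones. Without low library 2, limma called 3 of the 35 higher, RAB31, SDC3 and the ESCRT adaptor STAM (adjusted p = 0.0179, 0.0196 and 0.0185). It called 2 lower, the ESCRT subunits CHMP2A and CHMP5 (log2 differences -0.43 and -0.35, adjusted p = 0.0408 and 0.0464). Over all genes 8.15% were called higher and 5.48% lower in that setting, which is near these counts. STAM, CHMP2A and CHMP5 overlapped between the groups with all libraries. With the length index as covariate their log2 differences were 0.34, -0.10 and -0.25 (limma adjusted p = 0.0610, 0.379 and 0.0659). RAB11A and CHMP4B, with the highest mean CPM of the list, had log2 differences of -0.06 and 0.09.

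Late endosome and lysosome membrane genes, which share the compartment of CD63, had a median of -0.02 with 5 higher and 6 lower of 11 measured, and 0 past limma. LAMP1 was at 473, 558 and 391 CPM in low, against 356, 436 and 299 CPM in high cryosurvival libraries, and LAMP2 had a log2 difference of -0.02. CTNS, the lysosomal cystine exporter, was at 154, 107 and 150.0 CPM in low, against 177, 228 and 255 CPM in high cryosurvival libraries (log2 difference -0.68, limma adjusted p = 0.265). The ZDHHC palmitoyltransferases, a family of enzymes that attach the lipid anchors tetraspanins carry, were listed together with GOLGA7, which is not a ZDHHC enzyme. This list had a median of 0.06 with 10 higher and 4 lower of 14 measured, and 0 past limma. ZDHHC5 and ZDHHC3, with the highest mean CPM, had log2 differences of 0.08 and -0.01. ZDHHC23 had a difference of 0.58 that became 1.35 without low library 2, and ZDHHC13 one of 0.43 (limma adjusted p = 0.845 and 0.275 with all libraries). With the length index as covariate ZDHHC23 was at 0.68 (limma adjusted p = 0.101).

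**Figure D5:**
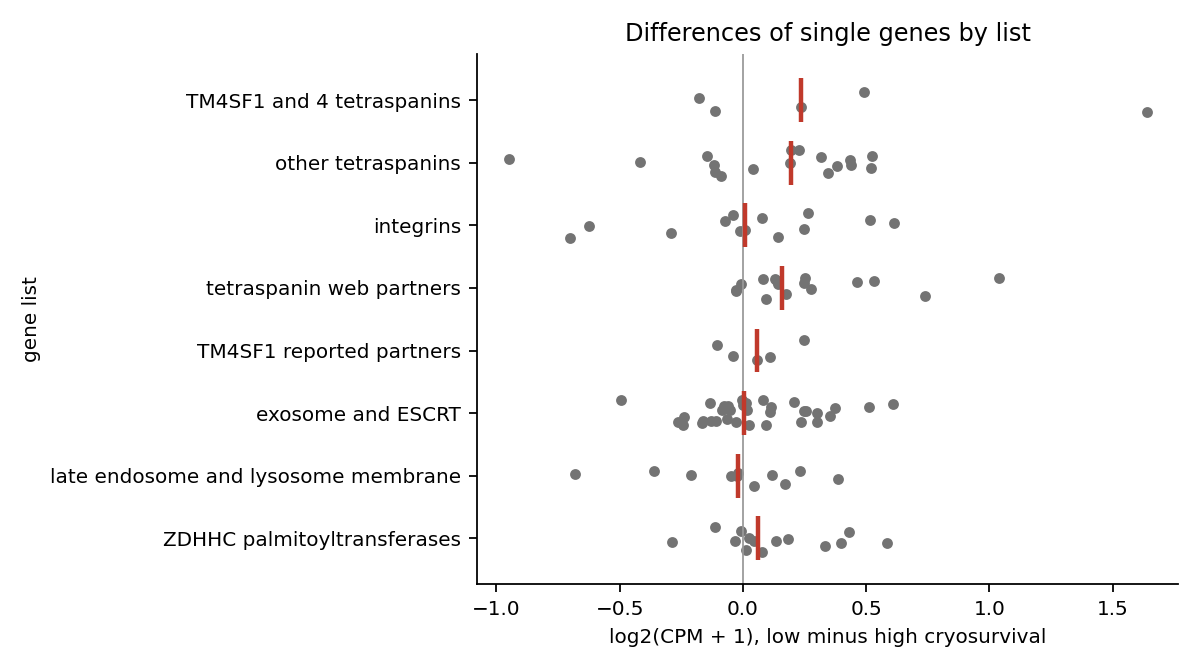
Log2(CPM + 1) differences, low minus high cryosurvival, of the single measured genes of each list named on the axis (grey points, spread vertically for sight) with the list's median (red line), from limma on all 6 libraries. The medians of these lists lie between -0.02 (late endosome and lysosome membrane) and 0.24 (TM4SF1 and 4 tetraspanins), and TM4SF1 is the point at 1.64.

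The genes most like TM4SF1 over the 6 libraries were ZNF592, PAPSS1, DNAJB11, DNAJC3 and ABHD13, with Pearson correlations from 0.979 to 0.985 among 7096 genes of at least 10 CPM. DNAJB11 and DNAJC3 encode chaperone cofactors of the endoplasmic reticulum, and PAPSS1 makes the sulfate donor of the cell. DNAJC3 was at 177, 191 and 187 CPM in low, against 126, 137 and 139 CPM in high cryosurvival libraries. PAPSS1 was at 28.0, 28.9 and 26.4 CPM in low, against 17.2, 17.6 and 22.1 CPM in high cryosurvival libraries. With each group centred on its own mean the correlations with TM4SF1 were 0.828 to 0.882.

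The other members had other companions. CD9 was most like DCUN1D5, DENR and UBFD1, with correlations from 0.990 to 0.996, and CD63 most like TOMM34, OSTF1 and SIRT2, from 0.995 to 0.998. CD81 was most like CHCHD10, CASP6 and TSNAX, from 0.994 to 0.999. CD151 was most like GGT1, ANKRD16 and its family member TSPAN32, from 0.971 to 0.991. CHCHD10, a mitochondrial protein gene, was at 42.7, 68.7 and 40.6 CPM in low, against 63.8, 57.3 and 63.6 CPM in high cryosurvival libraries, with low library 2 the highest as in CD81. These are the highest of many correlations over 6 points that share the library scaling.

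Markers of the cell types of the embryo were compared for their levels beside these results. The 14 measured trophectoderm markers summed to 28720 to 39690 CPM in low and 33387 to 37065 CPM in high cryosurvival libraries, with a median log2 difference of -0.13. Of the 14, 4 were higher and 10 lower, and the sums consist mostly of KRT8 and KRT18. The low libraries were all below the high ones in 4, GATA2, TFAP2A, TFAP2C and DAB2, and all above in 2, DLX3 and PAG11. Over all genes these shares were 10.6% and 10.4%. TFAP2A, a transcription factor of the trophectoderm, was at 26.3, 15.9 and 19.9 CPM in low, against 31.7, 37.9 and 29.4 CPM in high cryosurvival libraries (log2 difference -0.67, limma adjusted p = 0.270). Without low library 2, limma called 1 of the 14 lower, GATA2 (log2 difference -0.46, adjusted p = 0.0333). In that setting 5.48% of all genes were called lower and 8.15% higher, for this and the marker lists below. The 11 measured inner cell mass and epiblast markers summed to 1451 to 1524 CPM in low and 1516 to 1638 CPM in high cryosurvival libraries (median -0.06), with 5 higher and 6 lower. Low was below high without overlap in 3 of these, NANOG, LEFTY2 and DPPA4, and above in 0. NANOG, a pluripotency factor of the epiblast, was at 22.1, 12.2 and 14.3 CPM in low, against 47.3, 31.1 and 37.6 CPM in high cryosurvival libraries (log2 difference -1.23, limma adjusted p = 0.164). LEFTY2, an inhibitor of Nodal signalling, was at 1.80, 4.13 and 2.46 CPM in low, against 10.9, 6.13 and 7.49 CPM in high cryosurvival libraries (log2 difference -1.29, limma adjusted p = 0.176). These 2 genes were called lower in low by the authors' deposited table, with adjusted p of 0.002 and 0.008. Without low library 2, limma called NANOG, LEFTY2 and DPPA3 lower and LIN28A higher. The 11 measured hypoblast markers summed to 1953 to 3419 CPM in low and 2546 to 3241 CPM in high cryosurvival libraries, and their median was 0.47, with 7 higher and 4 lower. The 4 lower ones were PDGFRA, HNF4A, FN1 and CDH2, and the hypoblast sums consist mostly of FN1. The low libraries were all above the high ones in 3, GATA4, RSPO3 and BMP2, and all below in 1, HNF4A. No hypoblast marker passed limma, and without low library 2 it called 4 higher, COL4A1, LAMB1, RSPO3 and BMP2, and 0 lower. Cumulus and granulosa markers, of cells that surround the oocyte, had 7 of 16 measured. They summed to 414 to 559 CPM in low and 442 to 562 CPM in high cryosurvival libraries. These sums consist mostly of HSD3B1 and CYP11A1, and AMH, INHA and FST, among others, had no row. Of 11 oocyte markers ZP3 and OOEP had a row, at a sum of 5.74 to 19.4 CPM in low and 6.83 to 7.65 CPM in high cryosurvival libraries, and GDF9 and BMP15 had none. The part of any of these cell types in the TM4SF1 difference was not tested.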

How the data were processed

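The members and gene lists were chosen with earlier results of these data known. Bovine blastocyst libraries, 3 of low and 3 of high cryosurvival, were grouped by the labels. The authors deposited CPM, a log2 fold (high over low, turned here to low over high) and p-values, raw and adjusted, for each gene. The unit CPM was worked out from the values, since the deposited columns are whole multiples of 1 step per library: 100% of the values up to 1000 CPM gave whole reads within 0.05 read. Per the submitters' processing notes the tools were HTSeq 0.5.4p2, DESeq 1.12.1, SAMtools 0.1.18, Cufflinks 2.1.1, TopHat2 2.0.8 and Bowtie2 2.1.0. What each tool did, the build, annotation, strand setting, low-value filter and the maker of the deposited p-values (3 decimals) are not given by the sources. Coordinates are left out. No gene in the table has a mean below 0.737 CPM.

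On log2(CPM + 1) of all 6 libraries, limma 3.58.1 (R 4.3.3) was fitted without covariate or filter, with Benjamini-Hochberg adjustment over 9537 genes, at an adjusted p of 0.05. A fold change on this scale understates that of low genes. The test was checked on simulated data. An exact permutation test of 3 against 3 cannot go below 0.1 and was not made. Lists are described by counts and medians, without a list test. Named list genes include the 2 with the highest mean and the 2 with the largest difference at 5 CPM or more, and called genes. Any measured gene of the tetraspanin and TM4SF1 families may be named. ADAM10, the genes called without low library 2 or with the length index, and the neighbours of TM4SF1 were named after their values were seen. So were list genes named for groups that did not overlap, for their sign, or for having a row or none. Likeness is the Pearson correlation of log2(CPM + 1), for the top 5 genes of TM4SF1 and the top 3 of each other member. The RefSeq gene table of ARS-UCD2.0 matched 9007 gene names as symbols and 474 as synonyms. The short and long message sets (76 and 26 genes) were chosen after the values were seen. Alternatives changed the pseudocount, the filter, the scaling, the test, the block, the library weights and the libraries.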

Additional observations from a re-analysis of the deposited data

How the results depend on the processing

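The log2 differences of the 5 members kept their sign in all 16 alternatives, except that CD9 was at -0.01 with array weights. Among the alternatives, the block, the filter and the limma trend setting cannot change these differences. TM4SF1 ranged from 1.45 to 1.87, CD9 from -0.01 to 0.36, CD63 from 0.15 to 0.67, CD81 from -0.34 to -0.10 and CD151 from -0.14 to -0.08, and these ends came from leaving out single libraries, apart from the lower ends of CD9 and CD81, which came from array weights. The number of genes called by limma was 0 in the report's setting and between 0 and 1300 with single libraries left out, the highest being without low cryosurvival library 2. It was 10 with a pseudocount of 0.5, 7 with a pseudocount of 0.1, 7 among genes of at least 5 CPM, 5 with median-of-ratios scaling, 1260 with the length index as covariate and 4366 with limma array weights, the last 3 chosen after seeing the data. The array weight estimate stopped before convergence, with weights from 0.0592 for low library 2 to 14.6 for low library 3, and called TM4SF1 and CD81 among the members. The cause was not tested.

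Same-numbered libraries had correlations of their deviations from the group mean of 0.12, -0.26 and -0.31, and the other pairs from -0.36 to 0.37. Deviations from a group mean sum to 0 within the group, so these values cannot settle whether the replicate numbers pair the libraries. With the replicate number as a block limma called 0 genes, as without it. Each replicate number is in both groups, so this block cannot change the log2 differences. They were 1.64, 0.24, 0.49, -0.18 and -0.11 for TM4SF1, CD9, CD63, CD81 and CD151. TMM scaling and count tests other than voom were not run. Depth limits mainly the tetraspanins at a few CPM, such as TSPAN5 and CD37, where 1 read was worth 0.0499 to 0.0751 CPM in the low libraries.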
